A study of Mus musculus with 2 samples.

Results

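*Tnf*, the genes of its receptors, genes of related ligands, the gene of the protease that sheds it and genes known to be induced by it were described in bone marrow-derived macrophages (BMDMs) that lack the mRNA-binding protein tristetraprolin (TTP, encoded by *Zfp36*) and in WT BMDMs. The 10 members were taken by their symbols (*Tnf*, *Lta*, *Ltb*, *Tnfsf9*, *Tnfsf10*, *Tnfrsf1a*, *Tnfrsf1b*, *Adam17*, *Tnfaip2* and *Tnfaip3*), and all 10 were among the 37451 genes of the table, each with 1 identifier. The study set TTP-deficient against WT macrophages during the response to lipopolysaccharide (LPS), a component of the outer membrane of Gram-negative bacteria sensed by TLR4.

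The WT group was 1 library of BMDMs from C57BL/6 littermates. The ΔM group was 1 library of BMDMs from C57BL/6 TTP fl/fl LysMCre mice, which carry loxP-flanked *Zfp36* alleles and Cre under control of the lysozyme M gene, so that the deletion is limited to myeloid cells. Mice of both groups were 7 to 9 weeks old, and their marrow cells were grown with CSF-1 from L929 cells, the growth factor that makes macrophages of them. Both cultures received 100 µM 4-thiouridine, a uridine analog that enters new RNA, for 16 h and then LPS at 10 ng/ml for 6 h. An unstimulated library was not used here, so all values are levels after LPS and none is an induction. With 1 library per group there are no replicates. A difference between the libraries therefore has no replicate check, no test and no p-value. The study also sequenced WT and ΔM BMDMs after LPS in a separate experiment with biological replicates, which was not used here.

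TNF is made by activated macrophages as a membrane-bound precursor, and the metalloprotease ADAM17 cuts it off the cell surface. TNFR1 (*Tnfrsf1a*), which has a death domain, and TNFR2 (*Tnfrsf1b*), which has none and is found mainly on leukocytes, pass the signal to NF-κB and to kinase and cell death pathways, and NF-κB in turn induces brakes such as *Tnfaip3*. TTP binds AU-rich elements in 3′ UTRs, of which that of *Tnf* mRNA is the classical example, and promotes decay of the mRNA.

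Expression was given as FPKM, fragments per kilobase of exon scaled by library depth, which allows comparison between genes of different length. The depth was about 37000000 fragments for WT and 32700000 for ΔM, as read from the steps between low FPKMs. From these depths each FPKM received an approximate 95% Poisson interval, which covers counting error only and not variation between cultures or library preparations. PCR copies were not told apart, so the intervals may be too narrow even for counting error. Each log2 ratio of ΔM to WT was taken with 1 FPKM added to both values, which understates the change of low genes. Genes whose mean over both libraries reached 1 FPKM are called expressed, and those whose mean reached 10 FPKM highly expressed. *Zfp36*, the gene deleted in ΔM, is on chromosome 7, minus strand (29161803 to 29164274; positions here and below are those of mm9). It had 65.3 FPKM in WT (63.2 to 67.4) and 16.7 FPKM in ΔM (15.6 to 17.9), with a log2 ratio of -1.90. The library labelled ΔM thus had less *Zfp36* RNA, but the RNA was not absent.

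The cells carried macrophage markers in both libraries. *Adgre1* was at 379.9 FPKM in WT and 357 in ΔM, *Cd68* at 388 and 389.6 FPKM, the CSF-1 receptor gene *Csf1r* at 104 and 119 FPKM, and *Itgam* at 223 and 199.9 FPKM. *Cd14* was at 117 and 109.8 FPKM, *Fcgr1* at 306 and 329 FPKM, and *Mertk* at 2.15 and 3.48 FPKM. The lysozyme gene *Lyz2*, the locus that carries Cre in ΔM, was at 2481 FPKM in WT and 1356 in ΔM, a log2 ratio of -0.87. The 8 macrophage markers summed to 4001 FPKM in WT and 2864 in ΔM, with 4 higher and 4 lower in ΔM, and most of the gap between the sums was in *Lyz2*. Markers of other cell types were at or near 0 with few exceptions. The 5 B cell markers summed to 0.1 and 0.37 FPKM (most abundant *Cd79b*), the 5 NK cell markers to 0.09 and 0.04 FPKM (*Klrb1c*), the 6 fibroblast markers to 0.91 and 0.52 FPKM (*Pdgfrb*), and the 5 mast cell and basophil markers to 0.35 and 0.56 FPKM (*Kit*). Among 6 dendritic cell markers, which summed to 4.27 and 3.68 FPKM, the integrin gene *Itgax*, which macrophages also express, held 3.96 and 3.47 FPKM. The 7 T cell markers summed to 10.7 and 11.6 FPKM, nearly all of it *Lck* at 9.58 and 10.8 FPKM, while *Cd3e* and *Cd3g* were listed at 0 in both. The 7 neutrophil markers summed to 50.8 FPKM in WT and 100.5 in ΔM, through *S100a8* at 50.7 and 100.02 FPKM. *Ly6g*, *S100a9*, *Elane* and *Retnlg* were listed at 0 in both libraries. In such bulk samples, fewer cells of a type and less RNA per cell cannot be told apart, and the part of *S100a8* or *Lyz2* expressing cells in the values below was not tested.

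Of the 10 members, 8 were expressed. Counted among these 8, 2 were higher in ΔM (*Tnf* and *Tnfsf10*) and 6 were lower, and 0 reached 2-fold in either direction. Of the 8078 expressed protein-coding genes, 49.5% were higher and 50.2% lower in ΔM. Of the 3039 highly expressed ones, 46.7% were higher and 53.3% lower. Among the 10765 expressed genes of the whole table, 5.69% were at least 2-fold higher and 3.61% at least 2-fold lower in ΔM, but most of these do not code for proteins. Among the 8078 protein-coding ones the shares were 1.19% and 1.32%, so 0 of 8 is near the background. With 1.5-fold in place of 2-fold, 1 member was higher (*Tnf*) and 2 were lower (*Tnfaip2* and *Adam17*), where 4.82% of protein-coding genes were higher and 5.36% lower, and 11.2% and 7.51% of all genes. *Tnfaip3* fell just short of 1.5-fold on this scale. The median log2 ratio of the 8 members was -0.28, against 0.03 over all expressed genes and -0.00148 over the protein-coding ones. Counting intervals of the libraries did not overlap for 6 of the 8 expressed members, with 2 higher and 4 lower in ΔM. The same held in the higher direction for 17.8% and in the lower direction for 19.7% of 7976 expressed protein-coding genes. These counts describe a short list, and 1 library of each kind does not show how far they would vary.

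**Figure D1:**
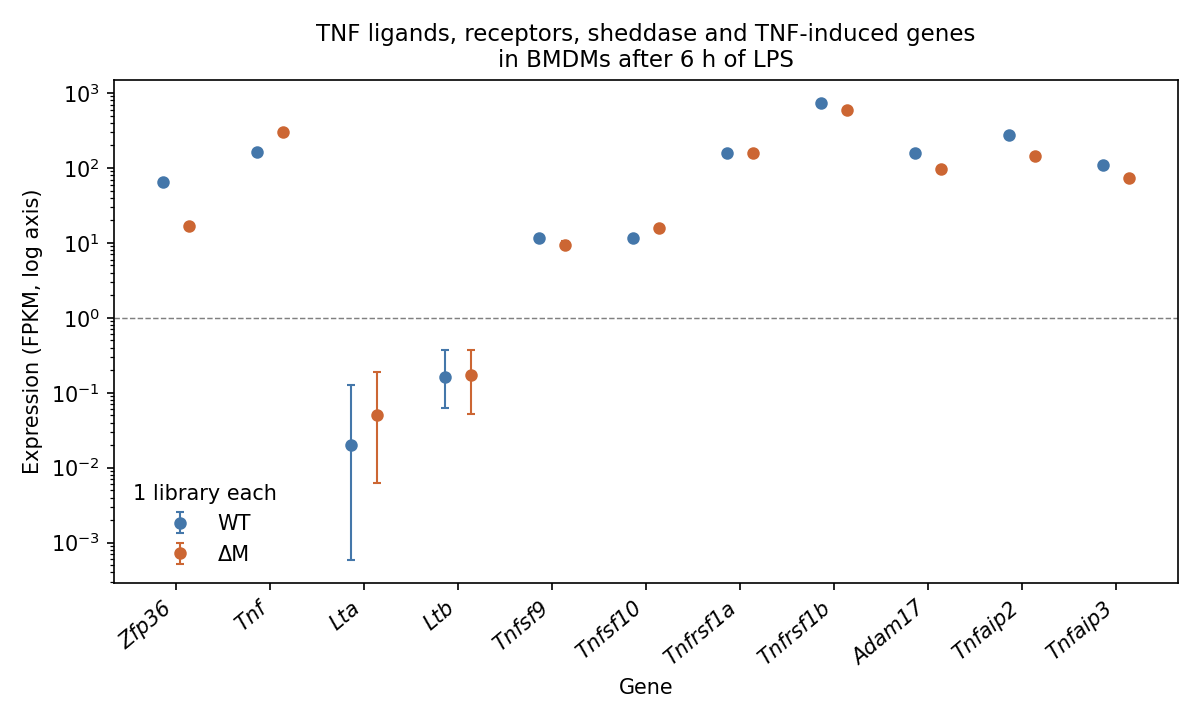
FPKM (log axis) of *Zfp36* and the 10 members in the WT library (blue) and the ΔM library (orange), grouped as ligands, receptors, protease and TNF-induced genes. Bars are 95% Poisson counting intervals, which are narrower than the points for all genes but *Lta* and *Ltb*, and the dashed line marks 1 FPKM. *Tnf* is higher in ΔM (306 against 161 FPKM), whereas *Tnfaip2*, *Tnfaip3* and *Adam17* are lower.

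*Tnf* led the ligands. *Tnf* (ENSMUSG00000024401; chromosome 17, 35336326 to 35338952, minus strand) was at 161 FPKM in WT (158 to 165), from about 8048 fragments, and at 306 FPKM in ΔM (301 to 311), from about 13521 fragments. The level in ΔM was 1.90 times that in WT (counting interval 1.85 to 1.95), with a log2 ratio of 0.92, just under 2-fold. Its place among protein-coding genes went from 216 in WT to 91 in ΔM, counted from the highest FPKM. Of the 3039 highly expressed protein-coding genes, 0.987% had a log2 ratio as high as that of *Tnf* or higher. *Tnf* thus had one of the higher ratios at this level of expression, although it did not pass the 2-fold rule.

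The lymphotoxin genes flank *Tnf* on chromosome 17 and encode the subunits of lymphotoxins, which signal through TNF receptors and the lymphotoxin beta receptor. *Lta* (ENSMUSG00000024402; 35340110 to 35342296, minus strand) was at 0.02 FPKM in WT and 0.05 in ΔM, or about 1 and 2 fragments, which gives a ratio of 2.5 with a counting interval from 0.13 to 147. *Ltb* (ENSMUSG00000024399; 35331384 to 35333265, plus strand) was at 0.16 FPKM in WT (0.062 to 0.368) and 0.17 FPKM in ΔM (0.0517 to 0.372). At this depth no difference was detectable for either gene, and both were below 1 FPKM while *Tnf* between them was among the highest genes. Besides *Tnf*, 6 expressed protein-coding genes lie within 50 kb of it, a window chosen after values were seen. Their log2 ratios ranged from -1.51 to 1.02. Their median changed sign with the filter: it was -0.04 over the 6 and 0.04 over the 5 that reached 1 FPKM in each library, a filter chosen after seeing the data. *Lst1*, a gene expressed in myeloid cells, was at 149.8 FPKM in WT and 154 in ΔM, and the helicase gene *Ddx39b* at 50.3 and 46.0 FPKM. *Aif1*, which encodes a calcium-binding protein of macrophages, was at 14.7 and 30.8 FPKM, a log2 ratio of 1.02. *Nfkbil1* was at 1.24 and 2.36 FPKM (log2 ratio 0.58), *Prrc2a* at 31.4 and 21.2 FPKM (-0.55) and the predicted gene *Gm16181* at 2.25 and 0.14 FPKM (-1.51). *Gm16181* counts as expressed only through WT, where it is higher, and it overlaps *Nfkbil1* on the opposite strand. The region around *Tnf* therefore held genes with higher, lower and similar values in ΔM.

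The remaining ligand genes were expressed at about 10 FPKM. *Tnfsf9* (ENSMUSG00000035678; chromosome 17, 57244808 to 57247180, plus strand) encodes the ligand of the T cell costimulatory receptor 4-1BB. It was at 11.4 FPKM in WT (10.4 to 12.6) and 9.43 FPKM in ΔM (8.43 to 10.5), a log2 ratio of -0.26. These intervals overlap, whereas the interval of the ratio itself (0.824, from 0.71 to 0.954) stayed below 1. *Tnfsf10* (ENSMUSG00000039304; chromosome 3, 27215950 to 27241349, plus strand) encodes the death ligand TRAIL. It was at 11.7 FPKM in WT (11.02 to 12.3) and 15.7 FPKM in ΔM (14.9 to 16.6), a log2 ratio of 0.40. In WT the *Tnfsf9* and *Tnfsf10* levels were alike within counting error, and in ΔM *Tnfsf10* was the higher one.

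The receptor genes were lower in ΔM or close to the WT level. *Tnfrsf1b* (ENSMUSG00000028599; chromosome 4, 144803366 to 144836773, minus strand) was the highest member in both libraries, at 741 FPKM in WT (735 to 747) and 597 FPKM in ΔM (591 to 603). The ratio was 0.806 (0.795 to 0.817) and the log2 ratio -0.31. Of the highly expressed protein-coding genes, 13.6% had a log2 ratio as low or lower. *Tnfrsf1a* (ENSMUSG00000030341; chromosome 6, 125299380 to 125312502, plus strand) was at 161 FPKM in WT (154 to 167) and 158 FPKM in ΔM (151 to 164), a log2 ratio of -0.03. Its intervals overlap, and no difference was detectable. *Tnfrsf1b* RNA was 4.61 times as abundant per length as *Tnfrsf1a* RNA in WT and 3.79 times in ΔM. *Tnf* RNA stood at 1.003 times the level of *Tnfrsf1a* in WT and at 1.94 times in ΔM, and at 0.217 times the level of *Tnfrsf1b* in WT and 0.513 times in ΔM. On this per-length scale the level of the ligand gene relative to both receptor genes was thus higher in ΔM.

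*Adam17*, the gene of the TNF-converting protease (ENSMUSG00000052593; chromosome 12, 21329370 to 21379493, minus strand), was at 156 FPKM in WT (153 to 159) and 97.8 FPKM in ΔM (95.4 to 100.2). The ratio was 0.626 (0.607 to 0.646) and the log2 ratio -0.67, opposite in sign to that of its substrate *Tnf*. A log2 ratio this low or lower was found in 2.76% of highly expressed protein-coding genes. *Iah1*, a gene on the opposite strand that overlaps *Adam17* in the annotation, was at 18.1 and 16.2 FPKM, and whether fragments were assigned by strand was not given in the sources used here.

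The TNFAIP genes, named for their induction by TNF, were both lower in ΔM. *Tnfaip2* (ENSMUSG00000021281; chromosome 12, 112680680 to 112693229, plus strand) encodes a protein that takes part in the formation of membrane nanotubes. It was at 272 FPKM in WT (266 to 278) and 146 FPKM in ΔM (141 to 150.4), a ratio of 0.536 (0.516 to 0.556) and a log2 ratio of -0.90, the lowest of the 10 members. *Tnfaip3* (ENSMUSG00000019850; chromosome 10, 18720716 to 18735463, minus strand) encodes a ubiquitin-editing enzyme that restrains NF-κB. It was at 109.9 FPKM in WT (108 to 112) and 73.2 FPKM in ΔM (71.4 to 75.2), a ratio of 0.666 (0.645 to 0.689) and a log2 ratio of -0.58. Shares of 1.22% and 3.95% of highly expressed protein-coding genes had log2 ratios as low as those of *Tnfaip2* and *Tnfaip3* or lower. In these libraries a higher *Tnf* level in ΔM thus stood beside lower levels of both TNF-induced genes.

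The order of the members differed between the libraries. In WT, *Tnfrsf1b* was followed by *Tnfaip2*, and then by *Tnf*, *Tnfrsf1a* and *Adam17*, whose intervals overlap with one another, by *Tnfaip3*, and by *Tnfsf10* and *Tnfsf9*. In ΔM, *Tnf* took the place after *Tnfrsf1b*, and *Tnfrsf1a*, *Tnfaip2*, *Adam17*, *Tnfaip3*, *Tnfsf10* and *Tnfsf9* followed with no overlap between neighbors. The protein-coding genes with the pair of log2(FPKM + 1) values closest to that of *Tnf* were the chemokine genes *Ccl12* (Euclidean distance 0.145) and *Ccl2* (0.205), the phosphatase gene *Dusp1* (0.252), the complement gene *C1qb* (0.266) and the Fc receptor gene *Fcgr4* (0.376). *Ccl12* was at 157 FPKM in WT and 338 in ΔM, and *Ccl2* at 163 and 353 FPKM. *Dusp1* was at 181 and 269 FPKM, *C1qb* at 171 and 257 FPKM, and *Fcgr4* at 177 and 239.7 FPKM. This likeness rests on 2 libraries.

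Besides the members, 83 genes of the pathway lists were matched in the table, of which 49 were expressed. Of these, 18 were higher and 31 lower in ΔM, 1 was at least 2-fold higher (*Rhbdf1*) and 1 at least 2-fold lower (*Traf1*), and the median log2 ratio was -0.12. Over all expressed protein-coding genes, 49.5% were higher and 50.2% lower in ΔM, and 1.19% and 1.32% were past 2-fold. The same shares are the background for the counts of the single lists below. *Rhbdf1* counts as expressed only through ΔM, where it is higher, so its change decides its own selection. When each library had to reach 1 FPKM, 48 genes were left, of which 0 were at least 2-fold higher and 1 was at least 2-fold lower, where 0.772% and 0.850% of the 7645 protein-coding genes passing the same filter were. At 1.5-fold, 1 of the 49 was higher and 6 were lower, where the shares of protein-coding genes were 4.82% and 5.36%. *Traf1*, an NF-κB-induced adaptor of TNFR2, was at 67.5 FPKM in WT (65.5 to 69.5) and 30.5 FPKM in ΔM (29.1 to 32.0), a log2 ratio of -1.12. *Rhbdf1*, which encodes an inactive rhomboid protein related to that of *Rhbdf2*, was at 0.5 FPKM in WT (0.219 to 0.909) and 2.74 FPKM in ΔM (2.03 to 3.69), a log2 ratio of 1.32 from about 9.4 and 45.5 fragments.

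Among 12 other ligand genes of the TNF superfamily in the table, 1 was expressed (*Tnfsf4*, at 4.09 FPKM in WT and 2.09 in ΔM), and 3 were listed at 0 in both libraries. With the members, 4 of the 17 ligand genes matched in the table thus reached a mean of 1 FPKM, and *Tnf* was far above the others. *Tnfsf12*, the remaining gene of the list of 18, was not matched by symbol and was not analysed here. Of the 26 other receptor genes of the superfamily, 8 were expressed. In ΔM 2 of them were higher and 6 lower, 0 past 2-fold, with a median log2 ratio of -0.36. *Cd40*, the costimulatory receptor gene and the highest of all genes on the lists, was at 1149 FPKM in WT (1133 to 1165) and 785 FPKM in ΔM (771 to 799), a log2 ratio of -0.55. Together with *Tnfrsf1b*, the most abundant receptor genes were thus lower in ΔM by less than 2-fold.

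Of the 25 genes of TNF receptor signalling, which cover adaptors, ubiquitin ligases, kinases and cell death proteins, 24 were expressed. In ΔM 9 were higher and 15 lower, with a median log2 ratio of -0.10, and *Traf1* was the 1 gene past 2-fold. *Cflar*, which encodes an inhibitor of caspase activation, was at 115 FPKM in WT and 107 in ΔM, and *Ikbkg*, the gene of the regulatory subunit of the IκB kinase, at 48.9 and 44.8 FPKM. Apart from *Traf1*, log2 ratios of this list ran from -0.49 for the kinase gene *Ikbkb* to 0.37 for *Chuk*, the gene of its partner kinase, both named after their values were seen.

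All 9 genes of TNFAIP3 partners and related brakes were expressed. In ΔM 3 were higher and 6 lower, 0 past 2-fold, with a median log2 ratio of -0.26. *Tnip3*, an inducible TNFAIP3-interacting protein gene, was at 511 FPKM in WT and 335 in ΔM, a log2 ratio of -0.61. *Tnip1*, a further such gene, was at 137 and 99.4 FPKM, and *Tax1bp1*, the gene of an adaptor of TNFAIP3, at 223 and 207 FPKM. *Tnip3* and *Tnfaip3* were therefore lower in ΔM by similar ratios. Of the 6 other TNFAIP genes, 3 were expressed, with 1 higher and 2 lower in ΔM, 0 past 2-fold and a median log2 ratio of -0.08. *Tnfaip8*, 1 of the lower ones, has 2 identifiers in the table, as has the receptor gene *Tnfrsf22*, and the one with the higher mean was used for each. The highest, *Tnfaip8l2*, was at 11.01 and 14.2 FPKM. Of the 5 other shedding genes, 4 were expressed, with 3 higher and 1 lower, *Rhbdf1* past 2-fold and a median log2 ratio of 0.26. Without *Rhbdf1*, selected through ΔM as said above, 2 were higher and 1 lower, 0 past 2-fold, with a median of 0.15. *Rhbdf2*, whose product brings ADAM17 to the cell surface, was at 56.5 FPKM in WT and 49.5 in ΔM, and *Frmd8*, whose product stabilizes that complex, at 40.7 and 45.2 FPKM. The lower value of *Adam17* in ΔM was thus not seen to the same extent in its cofactor genes.

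**Figure D2:**
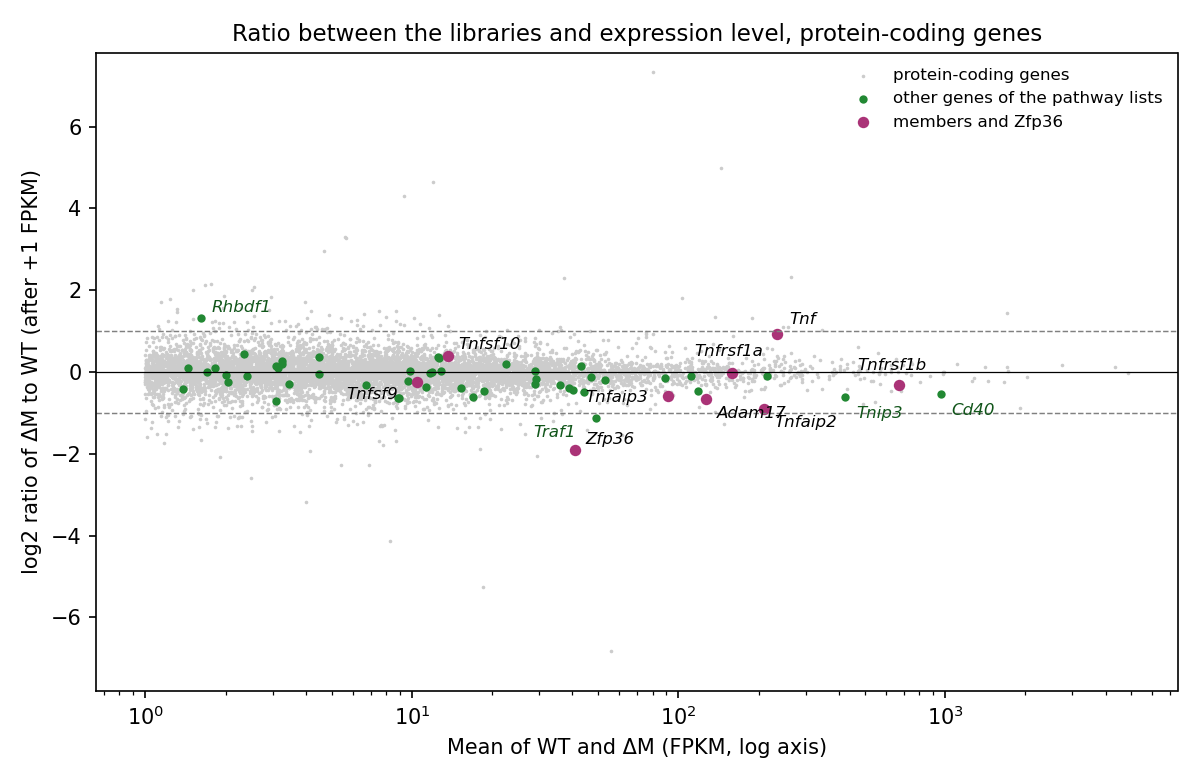
Log2 ratio of ΔM to WT (after adding 1 FPKM) against the mean of both libraries (FPKM, log axis) for 8078 expressed protein-coding genes (grey), the 49 other expressed genes of the pathway lists (green), and *Zfp36* and the 8 expressed members (purple). Dashed lines mark 2-fold, which *Zfp36*, *Traf1* and *Rhbdf1* pass among the colored genes. *Tnf* lies just under the upper line at 0.92 and *Tnfaip2* just above the lower one at -0.90.

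AU-rich motifs were counted in the longest annotated 3′ UTR of each gene, on the transcribed strand and with overlaps. The motifs were ATTTA, its extension TATTTAT and the further extension TTATTTATT, so that a match of a longer motif is also a match of the shorter ones. ATTTA was present in 8 of the 10 members and in 61.4% of 19899 protein-coding genes with an annotated 3′ UTR, TATTTAT in 5 members and 23.9%, and TTATTTATT in 3 members and 6.51%. *Tnf* held 8 ATTTA in 764 nt. At least 1 was found in 61.6% and as many in 0.22% of the 2268 other 3′ UTRs within 20% of its length. *Tnf* also held 8 TATTTAT (at least 1 in 17.9% of those 3′ UTRs, as many in 0.0882%) and 5 TTATTTATT (at least 1 in 3.79%). *Tnf* was therefore the member with the densest motifs.

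Among the other members, *Lta* held 3 TATTTAT in 572 nt, where 13.8% of 3′ UTRs of similar length held at least 1, and *Lta* was below 1 FPKM in both libraries. *Tnfsf10* held 3 in 3998 nt, where 55.9% did. *Tnfaip3* held 2 in 1821 nt, where 35.3% did, and *Tnfsf9* 2 in 253 nt, where 6.99% did. *Tnfrsf1b*, *Tnfaip2* and *Adam17* held 0 TATTTAT in 2324, 1456 and 1767 nt, where 39.9%, 31.0% and 34.7% held at least 1, and *Tnfrsf1a* and *Ltb* held 0 ATTTA. Among the expressed members, TATTTAT was thus found in *Tnf* and *Tnfsf10*, which were higher in ΔM, and in *Tnfsf9* and *Tnfaip3*, which were lower. A match is a description of the sequence and does not show binding.

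Sequences that the study lists as bound by TTP, or for 1 of them by the mRNA-stabilizing protein HuR, are shown because they let the AU-rich stretch of *Tnf* be compared with sites in members that were lower in ΔM. For each gene the first site of the list for 6 h or 3 h of LPS is given, with the time chosen by hand. All sequences were found in the mm9 genome at the positions given, are written 5′ to 3′ on the gene's strand, and have ATTTA in capitals. The *Tnf* site spans 73 nt of the 3′ UTR in exon 4 (chr17:35336602-35336674, minus strand) with 7 ATTTA, and the stretch shown is the first of 30 bases with the most of them, 5 (chr17:35336624-35336653). The first HuR site listed for *Tnf* lies within this stretch (chr17:35336625-35336642). Further, shorter HuR sites of *Tnf* (chr17:35336602-35336610 and chr17:35336617-35336619) lie outside the stretch and are not shown. The *Tnfaip3* site is in the 3′ UTR in exon 9 (chr10:18721577-18721598, minus strand), that of *Tnfrsf1b* in the 3′ UTR in exon 10 (chr4:144803607-144803619, minus strand) and that of *Adam17* in intron 1 (chr12:21377311-21377321, minus strand). Those of *Tnfsf9* (3′ UTR in exon 3, chr17:57247068-57247093, plus strand) and *Tnfaip2* (3′ UTR in exon 12, chr12:112693128-112693141, plus strand) are listed for 3 h of LPS, and the others for 6 h. For *Tnfsf9*, 3 shorter sites of 6, 3 and 3 bases are listed for 6 h; the first is the start of the site shown and the others lie outside it. For *Tnfaip2* no site was read for 6 h.
*Tnf*, TTP site: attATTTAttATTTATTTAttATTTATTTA
*Tnf*, HuR site: tttATTTAttATTTAttt
*Tnfaip3*: tcattctggtttATTTAttatg
*Tnfrsf1b*: cttcctATTTAat
*Adam17*: aATTTAaaaat
*Tnfsf9*: tttatataattcactagatagcatta
*Tnfaip2*: taatattattttta
The sites shown for *Tnfaip3*, *Tnfrsf1b* and *Adam17* hold 1 ATTTA each, and those for *Tnfsf9* and *Tnfaip2* hold 0. Other TTP sites are listed for each of these genes and for *Tnf* and are not shown. Of *Tnfaip3*, a site listed for 3 h outside the one shown (chr10:18721557-18721567) also holds ATTTA. HuR sites were also listed in the 3′ UTR of *Adam17* (chr12:21330717-21330738, minus strand, with 0 ATTTA), which was lower in ΔM, and of *Tnfsf10* (chr3:27238462-27238467 and chr3:27238429-27238433, plus strand), which was higher in ΔM and for which no TTP site was read. Members with a TTP site listed in the 3′ UTR for 6 h of LPS were thus both higher (*Tnf*) and lower in ΔM (*Tnfaip3*, *Tnfrsf1b* and *Tnfsf9*).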

How the data were processed

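RNA was measured in 1 library of WT and 1 library of ΔM BMDMs after 6 h of LPS. The deposited values are FPKM per gene: after rRNA depletion, the authors mapped the reads to mm9, discarded those with several positions and ran Cufflinks with Ensembl exons. Genes with near-identical copies elsewhere in the genome are therefore understated. Depth was estimated as the number of fragments and fragment length (201 nt in both libraries) at which low FPKMs of single-transcript genes of 350 to 1200 nt are whole multiples of 1 fragment, within 0.0055 FPKM. This held for 93.2% of 1456 values in WT and 93.9% of 1532 in ΔM, against 20.2% and 18.7% by chance. Number and length trade off against each other, so depth is approximate. The search was tested on simulated data. Intervals used the median annotated transcript length (GENCODE M1, the annotation of mm9), which held 37039 of the 37451 identifiers; 1 gene had no number in ΔM.

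Log2 ratios used a pseudocount of 1 FPKM, and counts of changed genes a mean of at least 1 FPKM and 2-fold. Named were the 10 members, *Zfp36*, the 3 highest genes of each pathway list and those past 2-fold, the 5 genes closest to *Tnf*, all macrophage markers and the most abundant marker of each other cell type; the neighbors of *Tnf*, *Iah1*, *Tnfsf4*, *Ikbkb*, *Chuk* and markers listed at 0 were added after values were seen. The members and lists were chosen with earlier results of these data known. Alternatives covered the pseudocount, the filter on low values, the scaling, the gene types, the fold and the transcript length. Software was Python 3.11.15, matplotlib 3.10.9, numpy 2.4.6, pandas 2.3.3 and scipy 1.17.1.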

Additional observations from a re-analysis of the deposited data

How the results depend on the processing

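No paired analysis was possible because each genotype has 1 library, which also means that none could be left out. Of 108 comparisons with an alternative, 89 stayed within the counting interval (counts: within a factor of 1.5), 19 moved and 0 changed sign beyond the counting interval. Genes at least 2-fold higher or lower in ΔM, 613 and 389, numbered 306 and 130 with a minimum mean of 10 FPKM, 96 and 107 with protein-coding genes only, and 1202 and 808 at 1.5-fold, as follows from how each count is made. With at least 1 FPKM required in both libraries, a filter added after seeing the data that can itself remove low genes that change, they numbered 331 and 147, while the members counted and their median did not change. With a pseudocount of 5 FPKM 226 genes were lower, and the log2 ratio of *Zfp36* was -1.69 in place of -1.90. Without a filter the member median was -0.14 over 10 members in place of -0.28 over 8, since *Lta* and *Ltb* enter near 0. At 1.5-fold, 1 member was higher and 2 were lower, where 0 and 0 were past 2-fold. Subtracting the median ratio of highly expressed genes, 0.04, moved *Tnfrsf1b* from -0.31 to -0.35. For genes of the pathway lists, members included, the same settings were applied after seeing the data: 1 of 57 expressed genes was higher and 1 lower at 2-fold, and 2 and 8 of them at 1.5-fold, where 4.82% and 5.36% of protein-coding genes were, and 0 were higher with a pseudocount of 5 FPKM or a minimum mean of 10 FPKM or with at least 1 FPKM in both libraries, because *Rhbdf1* is low. Without the members, 0 of the 6 list medians changed sign under either scaling. The number of members with intervals that do not overlap was 6 with each transcript length tried. Depth limits *Lta* and *Ltb* most, with under 6 fragments in each library.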
